A study of Mus musculus with 6 samples.

Results

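The genes described here encode the glucose and lactate transporters, the enzymes of glycolysis with the bisphosphoglycerate shunt, and the enzymes of the pentose phosphate pathway. They were listed by function, 36 genes in all, and each was read on its probe set with the highest mean. Of the 36, 31 had a probe set assigned to that gene alone, and 29 of these passed a filter on dim signal, out of 13232 genes tested and 18192 on the array. Pfkfb3 and Eno2 did not pass it, and their highest deposited intensities were 27.7 and 10.4. Gpi1, Pfkfb1, Eno1 and G6pdx had no named probe set here and were not analysed, and Gapdh was read only on the array's control probe sets. The list name Pkm2 is the current Pkm.

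The RNA was from mouse marrow cells sorted as CD71+/Ter-119+, which carry the transferrin receptor and a red cell lineage antigen, and was read on 6 single-colour Affymetrix arrays. The 3 Rb-null arrays came from EpoR-GFPcre/+; Rb fl/fl mice, with both Rb alleles floxed, and the 3 control arrays from EpoR-GFPcre/+; Rb fl/+ mice, with a single floxed allele. Both groups thus carried the same Cre at the erythropoietin receptor locus, which is active in erythroid cells, and the control mice kept an Rb allele that Cre cannot remove. The sources used here do not give strain, age or whether each array stands for its own animal, so p-values cover only the spread among these samples, possibly a technical one. The series is concerned with Rb, a brake on S phase entry, and the link between cell cycle exit and mitochondria in developing red cells.

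Mature red cells have no mitochondria and make their ATP by glycolysis alone, ending in lactate, which leaves the cell with a proton through monocarboxylate transporters. A side branch, the bisphosphoglycerate shunt, uses the mutase Bpgm to make bisphosphoglycerate, which lowers the affinity of haemoglobin for oxygen. The oxidative arm of the pentose phosphate pathway supplies NADPH, which keeps glutathione reduced, and its other arm exchanges sugar phosphates with glycolysis and supplies ribose for nucleotides. During maturation, erythroid cells rely on particular isoforms, among them the R form of pyruvate kinase from Pklr and hexokinase 1, whose inherited lack causes haemolytic anaemia in humans.

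Rb1 itself read 4334, 3277 and 3092 on Rb-null arrays 1, 2 and 3, against 2923, 2025 and 1553 on control arrays 1, 2 and 3. All values here are normalised intensities, on the linear scale after quantile normalisation, unless called deposited. The sources used here do not say whether this probe set lies in the floxed part, so Rb1 is no check of the labels, from which all directions come. Deposited intensities had medians of 23.3 to 31.2 per array, and precision is limited by having only 6 arrays. Both arrays numbered 3 stood apart by their 18S ribosomal RNA control signal, at 542 for Rb-null and 1231 for control, against 32.6 to 66.2 on the other 4. Arrays of the same number deviated together across genes, so a difference between the Rb-null and the control array of a number is called a pair. Leaving out a single array breaks its pair, so values given without 1 array also carry differences between array numbers. Of the cell type markers, 9 of the 10 erythroid genes on the array passed the filter, with a median log2 fold change of 0.02. All 10 summed to 48719, 50802 and 50027 on the Rb-null arrays and 49892, 46544 and 50512 on the control arrays. Within that sum Epor, the gene whose locus carries Cre in both groups, read 235, 1959 and 641 on the Rb-null arrays against 2358, 238 and 706 on the control arrays. Its values differed by several fold within each group, with pairs of -3.24, 2.96 and -0.14, and the part of this in the results was not tested. Granulocyte markers were also bright in the sort and summed to 28747, 52376 and 35883 on the Rb-null arrays, against 39926, 53449 and 45619 on the control arrays.

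Across the 29 tested members, 21 had lower and 8 higher mean signal in Rb-null cells, with Bpgm lowest at a log2 fold change of -0.81 and Pklr highest at 0.42. All 6 tested enzymes of the pentose phosphate pathway read lower in each of the 3 pairs. Upper glycolysis was divided, with Hk1, Pfkl, Aldoa, Aldoc and Tpi1 above 0 and Hk2, Hk3, Pfkm and Pfkp below it, whereas in lower glycolysis Pklr was the sole gene above 0 among 7. In sorted bulk RNA, fewer cells of a type and less RNA per cell cannot be told apart. No member passed limma's test over all genes (0 of 29; 0% of all genes were called), with the lowest adjusted p of any member at 1.00, so every difference below is a measured value and not a called change.

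The median log2 fold change of the 29 was -0.26, beside -0.04 over all genes tested. Without a filter, over 31 members, it was also -0.26. It was -0.14 without Rb-null replicate 1, -0.17 without control replicate 3 and -0.40 without Rb-null replicate 2. Values below 0 made up 72.4% of the members and 54.6% of all genes, and 45.4% of all genes lay above 0. A share of 48.3% of the members, 14 of 29, read lower in each of the 3 pairs, against 24.1% of all genes. Those 14 were Slc2a3, Hk2, Pfkm, Pfkfb4, Pgk1, Bpgm, Pkm, Ldha and all 6 pentose phosphate enzymes. Higher in each pair were 4 members, or 13.8%, against 18.4% of all genes, namely Slc16a1, Pklr, Aldoa and Tpi1. For 4 members, 13.8%, the ranges of the groups were apart, as they were for 9.92% of all genes. Slc16a1 lay wholly above control (3.45% of members, 5.13% of all genes), and Pfkm, Pfkfb4 and Taldo1 wholly below it (10.3% and 4.78%). With the pair as a block in the limma fit, 10 members below 0 (34.5%) and 2 above 0 (6.90%) had an unadjusted p under 0.05, against 9.14% and 7.77% of all genes. Without the block, Bpgm alone had such a p, at 3.45% of the members in the lower direction and 1.51% of all genes; 0 members had it in the higher direction, against 2.55%. After adjustment 0 members passed with the block (0% of all genes, lowest adjusted p of a member 0.124). A limma fit with the block, a variance trend and robust moderation called 3 members, Bpgm, Tkt and Taldo1, all lower (adjusted p = 0.0179, 0.0410 and 0.0420). That fit called 3.57% of all genes in either direction, and 1.39% of all genes in the lower direction.

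**Figure D1:**
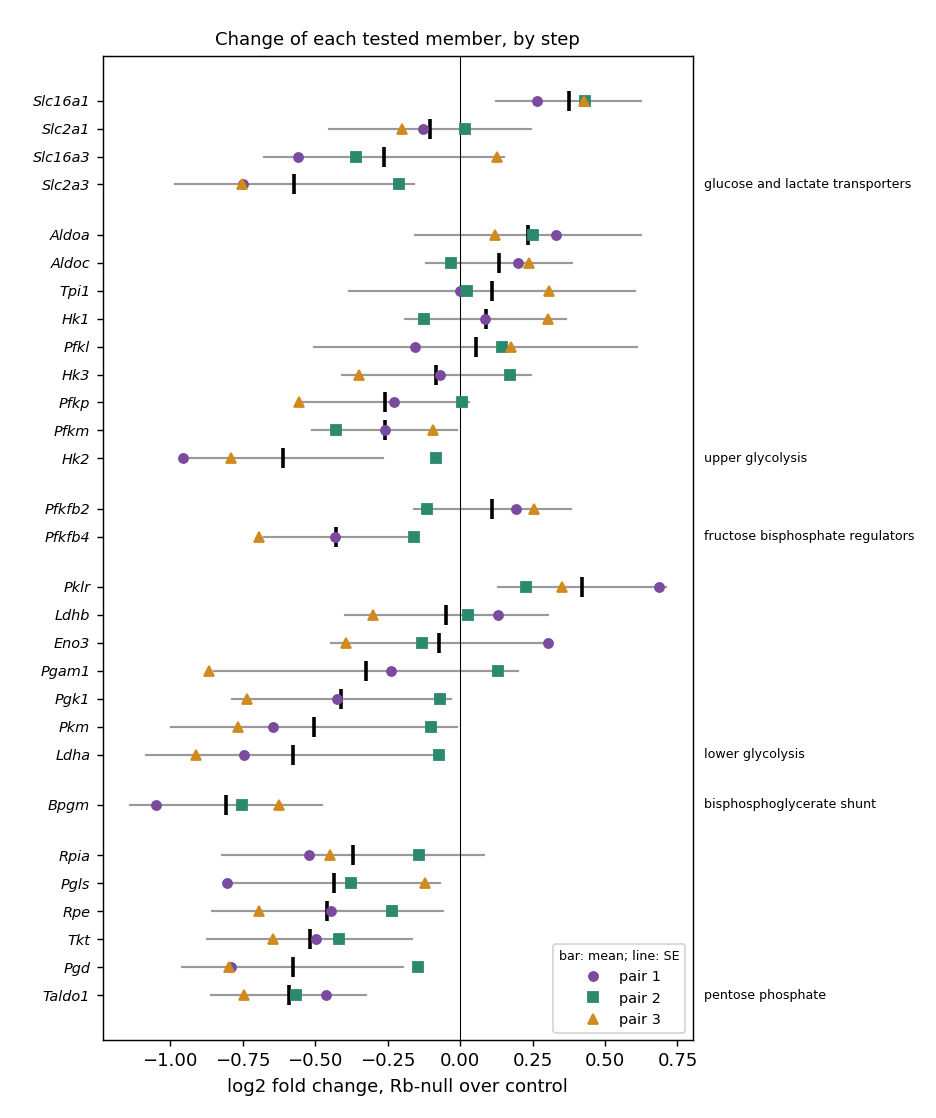
Log2 fold change of Rb-null over control (horizontal axis) for each of the 29 tested members, grouped by step. Symbols are the 3 pairs, the vertical bar is the mean and the grey line spans 1 SE on either side, from the limma fit without the block. The 6 pentose phosphate genes and Bpgm lie left of 0 in all pairs, and pair 2 is the pair nearest 0 for 19 of the 29 genes.

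The pairs differed in size. For 19 of the 29 members pair 2 was the pair closest to 0, or 65.5%, against 51.1% of all genes tested. Pair medians over the members were -0.26, -0.10 and -0.39 for pairs 1, 2 and 3. Granulocyte markers had pair medians of -0.65, -0.01 and -0.64, and pair 2 was closest to 0 for 15 of 16 genes. Of those 16 markers, 15 were below 0 (median -0.46), none was dim on every array, 0 were called, and S100a8 read 9383, 11668.5 and 9852 on the Rb-null arrays against 11668.5, 11668.5 and 10399 on the control arrays. Quantile normalisation gives arrays the same value at the same rank, so the equal S100a8 values show equal rank and not equal measured signal. The pair 2 difference of 0 for Ngp likewise shows equal rank. Macrophage markers had 8 of 9 below 0 (median -0.33) and summed to 1280 to 1866 on Rb-null arrays and 1481 to 3243 on control arrays. B cell markers had 6 of 8 below 0 (median -0.31). All 9 B cell markers on the array summed to 333 to 641 on Rb-null arrays and 502 to 1033 on control arrays. T and NK cell markers had 3 of 5 below 0 (median -0.08) and megakaryocyte markers 3 of 3 (median -0.24), with the defining gene Ppbp under the filter. The part of these markers in the members' values was not tested. Several listed enzymes, among them Hk3, Pkm and Pgd, are known to be abundant in granulocytes or macrophages. Their pairs differed, at -0.07, 0.17 and -0.35 for Hk3 and -0.64, -0.10 and -0.77 for Pkm. Pgd had pairs of -0.79, -0.15 and -0.80. Whether such cells bear on these values was not tested.

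Bpgm, the mutase that makes bisphosphoglycerate, had the lowest p of all members and the log2 fold change furthest from 0. It read 2734, 2658 and 4745 on Rb-null arrays 1, 2 and 3, against 5678, 4486 and 7321 on control arrays. Each Rb-null array lay below the control array of its number, though Rb-null array 3 lay above control array 2, so the groups overlapped. The means were 3379 ± 1184 in Rb-null cells and 5829 ± 1424 in control cells (SD, n = 3 each). On the log2(value + 16) scale of the fit the log2 fold change was -0.81 (SE 0.33, limma adjusted p = 1.00), or 1.75-fold lower. With the pair as a block the SE was 0.16 and the limma adjusted p 0.124, still not a call. Pair differences were -1.05, -0.75 and -0.62. A pair of further Bpgm probe sets gave the same direction. The first read 1452, 1438 and 3116 in Rb-null cells against 3895, 2870 and 5808 in control cells, and its log2 fold change was -1.10. The second read 1166, 1407 and 4761 in Rb-null cells against 2571, 2705 and 7940 in control cells, with -0.93. All 9 comparisons of an Rb-null array with its paired control array were below 0 over the 3 probe sets, which share their RNA and are no replicates. Without both arrays numbered 3 the log2 fold change of Bpgm was -0.89, and over every alternative run it lay between -1.06 and -0.64.

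Pklr, whose R form is the pyruvate kinase of red cells, read in the other direction on its brightest probe set. Rb-null arrays 1, 2 and 3 had 3694, 2421 and 2276, and control arrays 2288, 2067 and 1782. The Rb-null value was higher in each pair, and Rb-null array 3 lay just under control array 1, so the groups overlapped. Its log2 fold change was 0.42 (SE 0.29, limma adjusted p = 1.00), or 1.34-fold higher, and Rb-null array 1 carried the largest pair difference, at 0.69 against 0.23 and 0.35 in pairs 2 and 3. Without Rb-null replicate 1 it was 0.21, and with all Pklr probe sets averaged 0.11. The other Pklr probe sets did not share this direction. They had log2 fold changes of -0.06 and -0.01, and the probe set at -0.06 read 204, 262 and 303 in Rb-null cells against 252, 206 and 357 in control cells.

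The Pklr gene has 2 annotated starts, 481 bases apart, and in rat and human the upstream start gives the red cell R form and the downstream start the liver form. The 250 bases before each Pklr start are shown beside those before the start of Bpgm and of Slc16a1, because these 3 genes of red cell metabolism carry the values furthest below and above 0. The sequences are from RefSeq on GRCm38.p6, plus strand, 5′ to 3′. Capitals mark, on either strand, the motifs AGATAA and TGATAA, which GATA factors bind, CACCC, which Kruppel-like factors bind, and the E-box CACGTG; no marked motif overlaps another.
Pklr, upstream start, chr3:89135892-89136141: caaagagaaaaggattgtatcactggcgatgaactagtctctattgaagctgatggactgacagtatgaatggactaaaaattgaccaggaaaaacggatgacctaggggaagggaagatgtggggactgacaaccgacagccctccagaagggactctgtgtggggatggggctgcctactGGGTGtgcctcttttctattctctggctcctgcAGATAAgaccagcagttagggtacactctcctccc
Pklr, downstream start, chr3:89136373-89136622: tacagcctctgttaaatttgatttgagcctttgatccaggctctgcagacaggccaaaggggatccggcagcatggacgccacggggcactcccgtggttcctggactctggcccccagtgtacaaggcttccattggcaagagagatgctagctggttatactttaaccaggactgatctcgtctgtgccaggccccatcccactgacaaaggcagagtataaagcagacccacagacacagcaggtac
Bpgm, chr6:34476106-34476355: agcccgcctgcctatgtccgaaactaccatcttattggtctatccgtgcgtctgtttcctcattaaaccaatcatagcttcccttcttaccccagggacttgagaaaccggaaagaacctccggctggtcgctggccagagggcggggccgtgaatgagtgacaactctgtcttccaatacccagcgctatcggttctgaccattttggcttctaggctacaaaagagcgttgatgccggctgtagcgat
Slc16a1, chr3:104638414-104638663: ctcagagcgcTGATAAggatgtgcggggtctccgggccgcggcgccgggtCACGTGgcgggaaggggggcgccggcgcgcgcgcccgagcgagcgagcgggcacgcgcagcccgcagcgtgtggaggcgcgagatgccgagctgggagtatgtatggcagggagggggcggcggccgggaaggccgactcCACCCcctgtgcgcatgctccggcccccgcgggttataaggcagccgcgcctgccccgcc
The window at the upstream Pklr start held AGATAA at -35 to -30 on the gene's strand and CACCC at -68 to -64 on the opposite strand, counted back from -1 at the base before the start. The window at the downstream start and that of Bpgm held none of the 4 motifs. Slc16a1 held TGATAA at -240 to -235, CACGTG at -200 to -195 and CACCC at -60 to -56. Over all 32851 windows of this length, AGATAA was present in 9.99%, TGATAA in 7.94%, CACCC in 52.0% and CACGTG in 6.02%. Of the 54 windows of the 35 listed genes with an entry, 7 held AGATAA, 5 TGATAA, 34 CACCC and 5 CACGTG. A match describes these letters only.

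Transporters came next in order of the pathway. Slc16a1, the lactate and proton carrier MCT1, was the sole member whose Rb-null values all lay above the control values. It read 2705, 3374 and 3363 on Rb-null arrays, against 2249, 2496 and 2496 on control arrays, with means of 3147 ± 383 and 2414 ± 143 (SD, n = 3 each). The log2 fold change was 0.37 (SE 0.25, limma adjusted p = 1.00), and pair 2 gave the highest difference, at 0.43. A dim second probe set had 0.08, and averaging both gave 0.23. Slc16a3, which encodes MCT4, the lactate exporter of strongly glycolytic cells, read 11.9, 33.1 and 63.1 in Rb-null cells against 25.1, 47.0 and 56.4 in control cells. Its values overlapped widely between the groups, and its log2 fold change of -0.26 turned to 0.12 without Rb-null replicate 1.

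Slc2a1, the glucose transporter GLUT1, abundant on human red cells, read 176, 106 and 185 in Rb-null cells against 194, 104 and 214 in control cells. The arrays of a number were close to each other, and its log2 fold change was -0.10 (SE 0.35). A further Slc2a1 probe set, below the filter, pointed the other way, with Rb-null values of 24.3, 12.7 and 47.3 all above control values of 6.15, 10.7 and 1.86. Slc2a3, the glucose transporter GLUT3, read 76.5, 222 and 89.7 in Rb-null cells against 139, 259.5 and 162 in control cells. It was lower in each pair, with a log2 fold change of -0.57 (SE 0.41), and array 2 was the highest of each group. Without Rb-null replicate 2 Slc2a3 had -0.99, and without Rb-null replicate 1 it had -0.31. A second Slc2a3 probe set past the filter had -0.67 and another, dim, -0.04, while a probe set below the filter had 0.39.

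Among the enzymes of upper glycolysis, the hexokinases, which trap glucose by phosphorylation, did not share a direction. Hk1, the red cell hexokinase, read 1838, 1659 and 1466 on Rb-null arrays and 1730, 1810 and 1185 on control arrays. These overlapped, and the log2 fold change was 0.09 (SE 0.28), with 0.21 on a second probe set. It turned to -0.02 without both arrays numbered 3. Hk2, an inducible hexokinase known as a target of hypoxia signalling, was dim and read 17.5, 54.0 and 17.8 in Rb-null cells against 49.1, 58.1 and 42.4 in control cells. Rb-null arrays 1 and 3 lay well below every control array while Rb-null array 2 lay among them, giving a log2 fold change of -0.61 (SE 0.34), which was -0.95 without Rb-null replicate 2. An offset of 64 in place of 16 gave -0.30, and an offset of 1 gave -0.92. Hk3, a hexokinase of myeloid cells, read 162, 216 and 254 in Rb-null cells and 171, 190.1 and 328 in control cells, with -0.08 (SE 0.32).

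Phosphofructokinase is the rate-setting enzyme of glycolysis, and red cells in humans carry its L and M subunits. Pfkm, the M subunit, read 212, 229.7 and 221 on Rb-null arrays, all below the control values of 256, 315 and 237. The groups did not overlap, but the gap was small, with a log2 fold change of -0.26 (SE 0.25), or -0.15 without control replicate 2. Pfkl, the L subunit, read 84.0, 123 and 348 in Rb-null cells against 95.4, 109.6 and 306 in control cells. Arrays numbered 3 were the highest of both groups, its log2 fold change was 0.05 (SE 0.56), and its other probe sets disagreed at 0.43 and -0.58. Pfkp, the platelet subunit, was near the filter value of 18.9, with 15.9, 31.5 and 22.7 in Rb-null cells and 21.4, 31.2 and 40.8 in control cells. From -0.26 (SE 0.29), the log2 fold change of Pfkp moved to -0.11 without control replicate 3 and to -0.057 with its probe sets averaged. Bifunctional enzymes set the level of a fructose bisphosphate that activates phosphofructokinase and is not its product. Of these enzymes, Pfkfb4 read 82.6, 87.8 and 75.8 on Rb-null arrays, below all control values of 117, 99.8 and 132. This was a log2 fold change of -0.43 (SE 0.25). Pfkfb2 read 170.2, 122 and 127 in Rb-null cells and 147, 133 and 104 in control cells, with 0.11 (SE 0.27).

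Aldolase and triose phosphate isomerase split the hexose and interconvert the products. Aldoa, the aldolase of muscle and red cells, read 443, 754 and 877 in Rb-null cells against 349, 631 and 806 in control cells. It was higher in each pair, and the spread between array numbers was wider than the difference within a pair, so the log2 fold change of 0.23 had an SE of 0.39. All 5 Aldoa probe sets past the filter were above 0, from 0.23 to 0.34, yet the log2 fold change was -0.099 without control replicate 1 and 0.52 without Rb-null replicate 1. Aldoc, the brain form, read 48.7, 40.9 and 59.0 in Rb-null cells and 40.4, 42.2 and 47.6 in control cells, with 0.14 (SE 0.25) and 0.034 without Rb-null replicate 3. Tpi1 read 104, 292 and 119 in Rb-null cells against 104, 287 and 93.6 in control cells, and its 3 probe sets had log2 fold changes from 0.03 to 0.19. The log2 fold change of Tpi1 lay on both sides of 0 when single arrays were left out, from -0.31 to 0.57.

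**Figure D2:**
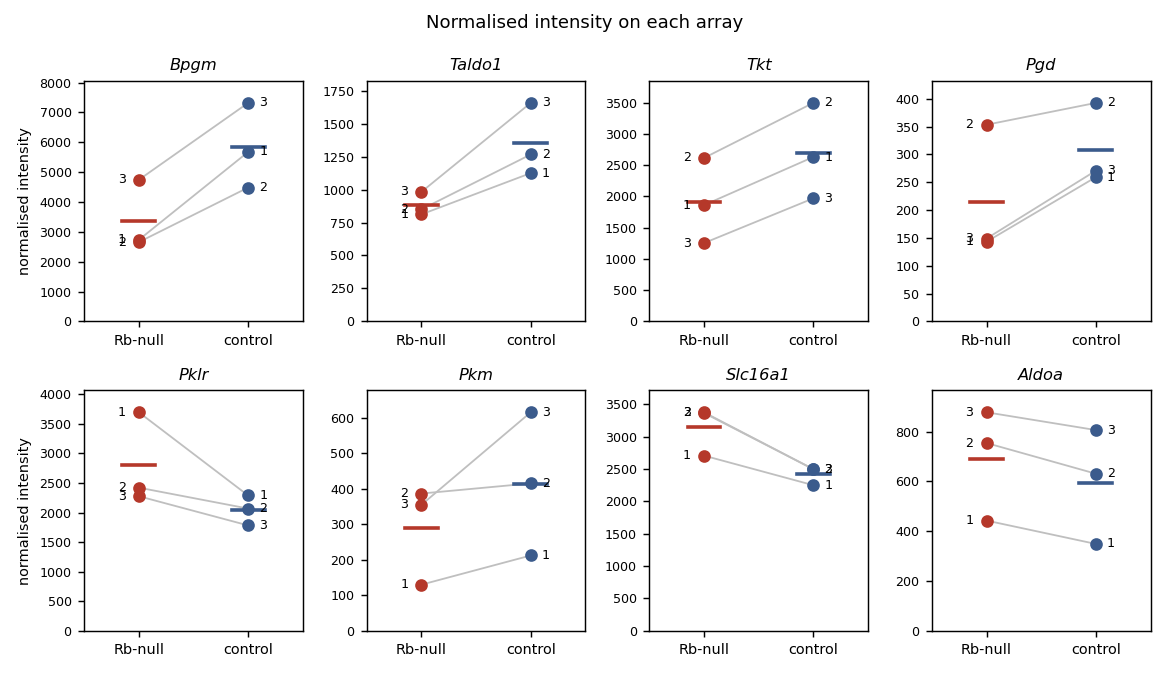
Normalised intensity (vertical axis, linear, from 0) of 8 members on each Rb-null array (left) and control array (right), with grey lines joining arrays of the same number and bars at the group means. Bpgm, Taldo1, Tkt, Pgd and Pkm slope upward towards control in each pair, and Pklr, Slc16a1 and Aldoa slope downward.

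Lower glycolysis makes ATP and pyruvate, and its enzymes other than Pklr read at or below control. Gapdh, the dehydrogenase that takes electrons to NAD, was read on 3 array control probe sets on the deposited scale. On the probe set for the middle of the transcript the deposited intensities were 732, 2038 and 1804 on Rb-null arrays, against 989, 2206 and 2079 on control arrays. Each of the 3 control probe sets gave a lower value for Rb-null in every pair, and array 1 was the lowest in both groups. Pgk1, the phosphoglycerate kinase, read 426, 769 and 298 in Rb-null cells and 577, 807 and 507 in control cells. Its log2 fold change was -0.41 (SE 0.38), and its other probe sets had -0.22 and -0.56. Leaving out Rb-null replicate 3 gave -0.11 for Pgk1, and leaving out Rb-null replicate 2 gave -0.77.

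Pgam1, the phosphoglycerate mutase of the main pathway, read 162, 333 and 65.0 in Rb-null cells against 195, 303 and 132 in control cells. The sign differed between pairs, at -0.24, 0.13 and -0.87, and without Rb-null replicate 3 the log2 fold change of -0.32 turned to 0.22. Of the minor enolases, Eno3, the muscle form, read 34.5, 36.5 and 60.1 in Rb-null cells against 25.0, 41.5 and 83.9 in control cells, with -0.07 (SE 0.37). Pkm, the pyruvate kinase of most other cells, read 130.2, 387 and 355 in Rb-null cells and 212, 416 and 616 in control cells. It was lower in each pair, at -0.64, -0.10 and -0.77, with a mean log2 fold change of -0.50 (SE 0.49) that came to -0.035 without Rb-null replicate 1 and to -0.91 without control replicate 1.

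Lactate dehydrogenase regenerates NAD from pyruvate. Ldha, its muscle-type subunit, read 249, 907 and 287 on Rb-null arrays against 427, 954 and 553 on control arrays. Array 2 was the highest of each group and nearly level between them, while pairs 1 and 3 differed by -0.74 and -0.91, and the log2 fold change was -0.58 (SE 0.51). With single arrays left out it lay between -1.14 (without Rb-null replicate 2) and -0.24 (without Rb-null replicate 1). Ldhb, the heart-type subunit, read 405, 296 and 501 in Rb-null cells and 368, 291 and 620.0 in control cells. With -0.05 (SE 0.35) it had pairs on both sides of 0.

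The pentose phosphate pathway had the most uniform values of any step. Its 6 tested enzymes had a median log2 fold change of -0.49, with pair medians of -0.51, -0.31 and -0.67, and 4 of the 6 had an unadjusted p under 0.05 with the block, as did 9.14% of all genes in the lower direction, but 0 passed after adjustment. Leaving out single arrays moved the median from -0.70 (without Rb-null replicate 2) to -0.32 (without control replicate 2, and also without Rb-null replicate 3). Without both arrays numbered 3 all 6 were below 0 with a median of -0.46. The part of granulocyte signal in these values was not tested.

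Taldo1, transaldolase of the non-oxidative arm, read 812, 849.7 and 982 on Rb-null arrays, against 1124, 1266 and 1657 on control arrays. No Rb-null value reached the lowest control value. Means were 881 ± 89.4 in Rb-null cells and 1349 ± 276 in control cells (SD, n = 3 each). The log2 fold change was -0.59 (SE 0.27, limma adjusted p = 1.00), or 1.51-fold lower on the scale of the fit, with pairs of -0.46, -0.57 and -0.75. With the pair as a block the SE was 0.15 and the limma adjusted p 0.170, again not a call. Tkt, the transketolase that works beside it, read 1860.0, 2614 and 1253 in Rb-null cells and 2630, 3495 and 1968 in control cells. The groups overlapped because arrays numbered 2 were high and arrays numbered 3 low in each, but the pairs were alike at -0.50, -0.42 and -0.64. Its log2 fold change came to -0.52 (SE 0.35), and to -0.25 without Rb-null replicate 3, -0.31 without control replicate 2 and -0.78 without Rb-null replicate 2. Averaging all 3 probe sets of Tkt gave -0.20. A second bright probe set had -0.48. Another, dim probe set had 0.40, with a value of 45.0 on Rb-null array 3 against 4.21 on control array 3.

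Pgd, the phosphogluconate dehydrogenase that yields NADPH, read 143, 353 and 149 in Rb-null cells, against 259, 393 and 271 in control cells. It was lower in each pair, with pair 2 at -0.15 beside -0.79 and -0.80, and the log2 fold change was -0.58 (SE 0.38). Without Rb-null replicate 1 Pgd had -0.36, and without Rb-null replicate 2 it had -0.97. All 4 Pgd probe sets were below 0, from -0.76 to -0.35. Pgls, the lactonase before it, read 73.6, 179 and 121 in Rb-null cells and 140.4, 237 and 133 in control cells, with -0.43 (SE 0.36). Pgls had -0.14 without Rb-null replicate 1, -0.19 without control replicate 2 and -0.70 without Rb-null replicate 2. Rpia and Rpe interconvert the pentose phosphates, Rpia yielding ribose phosphate. Rpia read 573, 599.9 and 239 in Rb-null cells against 829, 664 and 332 in control cells. Rpia was lower in each pair, at -0.52, -0.14 and -0.45, with a log2 fold change of -0.37 (SE 0.45). Without Rb-null replicate 3, which leaves control array 3 unpaired, it was 0.04. Rpe read 137, 164 and 58.8 in Rb-null cells and 192, 196 and 105 in control cells, with -0.46 (SE 0.40) and -0.29 on its second probe set past the filter. Without Rb-null replicate 3 Rpe had -0.075, and without control replicate 3 it had -0.73.

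**Figure D3:**
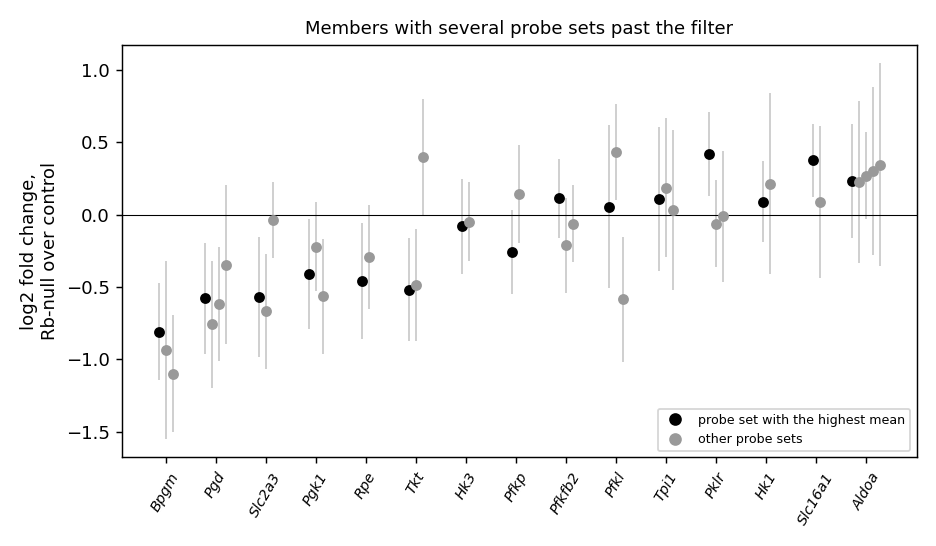
Log2 fold change of Rb-null over control (vertical axis) for every probe set past the filter of the 15 members with more than 1. Black points are the probe sets used for the gene, grey points the others, and lines span 1 SE on either side. The 3 of Bpgm and 4 of Pgd lie below 0 and the 5 of Aldoa above it, while 5 genes, Pfkl, Pfkp, Pfkfb2, Pklr and Tkt, have probe sets on both sides.

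Within each array, a red cell form was then set against its counterpart as a log2 ratio, which shows unequal change only and does not compare levels of the genes. In Ldhb over Ldha and in Bpgm over Pgam1 both genes are listed as red cell forms. Pklr over Pkm differed by 0.92 between Rb-null and control, the ratio being 4.67, 2.60 and 2.63 on Rb-null arrays against 3.33, 2.27 and 1.51 on control arrays. It was higher in each pair, by 1.33, 0.33 and 1.12, but the groups overlapped (exact permutation test, 2-sided, p = 0.4). Without Rb-null replicate 1 the difference was 0.24. Slc16a1 over Slc16a3 differed by 0.64 and Slc2a1 over Slc2a3 by 0.47, both higher in each pair, with exact permutation p = 0.2 and p = 0.5. Slc2a1 over Slc2a3 was -0.07 without control replicate 2. Ldhb over Ldha differed by 0.53 and Pfkl over Pfkp by 0.31, also higher in each pair (exact permutation p = 0.5 and p = 0.6), and they were -0.02 without control replicate 2 and -0.23 without Rb-null replicate 3. Hk1 over Hk2 differed by 0.70 (exact permutation p = 0.3), with pair 2 at -0.04.

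Bpgm over Pgam1 differed by -0.48, at -0.81 and -0.88 in pairs 1 and 2 and 0.24 in pair 3 (exact permutation p = 0.8), and by 0.16 without Rb-null replicate 2. The remaining ratios, Hk1 over Hk3 at 0.17, Aldoa over Aldoc at 0.10 and Pfkm over Pfkp at -0.00, had pairs on both sides of 0 (exact permutation p = 0.8, 0.6 and 1). The 10 ratios are not independent, since Hk1 and Pfkp each enter more than once, and after adjustment over the 10 the lowest p was 0.857. An exact test of 3 against 3 arrays cannot go below p = 0.1. The 19 members listed as red cell forms had a median log2 fold change of -0.32 and the 10 others -0.26. That list holds all 6 tested pentose phosphate enzymes (median -0.49), Tpi1, Pgk1 and both Ldha and Ldhb. These medians therefore do not compare red cell isoforms with their counterparts.

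**Figure D4:**
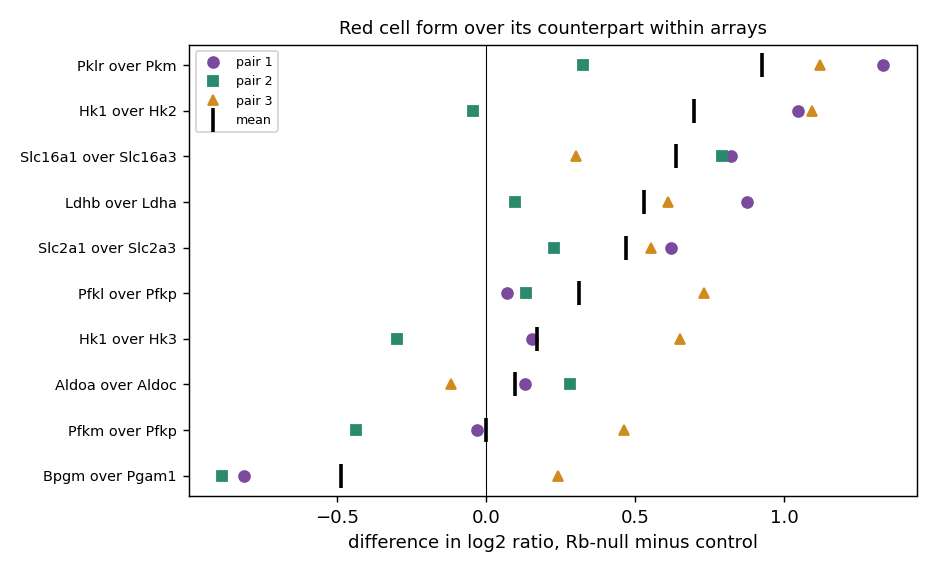
Difference in the log2 ratio of a red cell form over its counterpart, Rb-null minus control (horizontal axis), for 10 ratios. Symbols are the 3 pairs and bars the means. For 5 ratios, Pklr over Pkm the highest, all pairs lie above 0, and Bpgm over Pgam1 has 2 pairs below 0 and 1 above. In Ldhb over Ldha and in Bpgm over Pgam1 both genes are listed as red cell forms.

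Other carbohydrate genes around these pathways, 75 in a further list with 58 tested, were spread evenly about 0. Of the 58, 28 were above 0 and 30 below, the median log2 fold change was -0.02 beside -0.04 over all genes, and 0 passed limma's adjusted test. Groups did not overlap for 5, or 8.62%, a share below the 9.92% of all genes. Glo1, the glyoxalase that clears methylglyoxal, a by-product of glycolysis, had the smallest p. It read 519, 759 and 762 in Rb-null cells against 1063, 2008 and 2048 in control cells, all lower, with a log2 fold change of -1.27 (SE 0.34, limma adjusted p = 0.582). On 3 further probe sets it had -0.74, -0.98 and -1.42. Minpp1, a phosphatase that can break down bisphosphoglycerate, read 287, 642 and 367 in Rb-null cells and 483, 793 and 591 in control cells, with -0.56 (SE 0.36).

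Pgm2l1, which makes glucose bisphosphate, read 333, 298 and 170.1 in Rb-null cells, all above the control values of 147, 159 and 55.2. Its log2 fold change was 1.11 (SE 0.42), and 0.85 and 1.16 on its other probe sets. Prps1, which turns ribose phosphate into the precursor of nucleotides, read 298, 289.7 and 201 in Rb-null cells against 127, 235 and 76.5 in control cells, with 0.88 (SE 0.39). Gsr, the glutathione reductase that uses the NADPH of the pentose phosphate pathway, read 438, 575 and 625 in Rb-null cells against 293, 425 and 414 in control cells. It was higher in each pair, at 0.56, 0.42 and 0.57, the groups did not overlap, and the log2 fold change was 0.52 (SE 0.28, limma adjusted p = 1.00). Pdp1, the phosphatase that activates pyruvate dehydrogenase, had 0.37 (SE 0.25), the phosphomannomutase Pmm1 0.59 (SE 0.35) and the glycogen primer Gyg -0.66 (SE 0.38).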

How the data were processed

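The deposited intensities, which the authors gave per probe set on a linear scale, were used for all 6 arrays. The sources used here do not state how they were made from the scans. Sample titles gave each array its group and number. From 45101 probe sets, 64 controls, 4 empty and 1 with a value above a scanner's range were left out. Values were transformed as log2(value + 16) and quantile normalized, as array medians differed by up to 0.264. Normalised intensities are these values turned back to the linear scale. A probe set was kept if its mean exceeded the 40th percentile (log2 5.12), and the probe set of 1 gene symbol with the highest mean represented each gene, also in the alternatives other than that averaging probe sets. Gene names are those of GEO's platform annotation, in which 34941 of the probe sets used had 1 symbol, 932 several and 9159 none.

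Differences between Rb-null and control were tested with limma 3.58.1 (R 4.3.3; lmFit and eBayes, 2-sided), adjusting p by Benjamini-Hochberg across all 13232 genes, with 0.05 as the threshold. SE is that of the fit without the block. The fit was tested on simulated data. Deviations from the group means correlated at 0.636, 0.615 and 0.653 between same-numbered arrays, and at -0.481 to 0.0370 in other combinations. Deviations within a group add up to 0, so part of the negative values is built in. The number was used as a block in an alternative. The sources used here do not explain the numbers. Ratios within arrays were tested by exact permutation. The members, lists, alternatives and the rule for named genes (all members, and the 8 other pathway genes with the smallest p) were chosen with earlier results of these data known. Promoter sequences came from RefSeq (GRCm38.p6), with entries for 35 of the 36 genes. Alternatives covered scaling, offset, filter, probe set choice, the replicate block, moderation, and arrays left out.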

Additional observations from a re-analysis of the deposited data

How the results depend on the processing

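The number of genes called was 0 in the fit as reported (lowest adjusted p = 0.106) and 0 under every alternative except an offset of 64, which called 2 (2 higher), and the replicate block with variance trend and robust moderation, which called 473 (289 higher and 184 lower). The number of members called was 0 under all alternatives except that with block, trend and robust moderation, which called 3. With the replicate block alone it was 0 of 29, the same as without the block. Under variance trend and robust moderation the pairing did change calls, since that moderation without the block called 0 genes and 0 members. The median of the members lay between -0.40 and -0.14 when single arrays were left out and between -0.38 (offset 1) and -0.22 (offset 64) under the others, below 0 in each. With the deposited scaling 21 of 29 members were again below 0. Signs were turned in 30 of 461 values of single members, over 12 genes, none of them called. Of these 30, 23 came from leaving out 1 array and 7 from other alternatives. Leaving out 1 array leaves the other array of its number unpaired, so these shifts include differences between array numbers. The filter, block and moderation alternatives leave each log2 fold change as it is and could not turn a sign, so the 461 values overstate stability. Leaving out 1 array gave log2 fold changes of -0.39 to 0.12 for Slc2a1, -0.64 to 0.12 for Slc16a3, -0.10 to 0.20 for Hk1, -0.26 to 0.19 for Hk3, -0.49 to 0.54 for Pfkl, -0.024 to 0.21 for Pfkfb2, -0.099 to 0.52 for Aldoa, -0.31 to 0.57 for Tpi1, -0.83 to 0.22 for Pgam1, -0.37 to 0.28 for Eno3, -0.28 to 0.25 for Ldhb and -0.75 to 0.045 for Rpia. Averaging all probe sets turned Pfkl to -0.033 and Pfkfb2 to -0.055, and leaving out both arrays numbered 3 turned Hk1 to -0.019, Hk3 to 0.052, Pfkl to -0.0064, Eno3 to 0.087 and Ldhb to 0.078; the cause was not tested. The ratios within arrays ranged, with 1 array left out, over 0.24 to 1.42 for Pklr over Pkm, -1.28 to 0.16 for Bpgm over Pgam1, 0.44 to 1.03 for Hk1 over Hk2, -0.29 to 0.42 for Hk1 over Hk3, -0.066 to 1.11 for Slc2a1 over Slc2a3, 0.37 to 0.96 for Slc16a1 over Slc16a3, -0.20 to 0.38 for Aldoa over Aldoc, -0.23 to 0.65 for Pfkl over Pfkp, -0.23 to 0.12 for Pfkm over Pfkp, -0.021 to 1.28 for Ldhb over Ldha; under the other alternatives they moved by less than the SD between pairs. Pfkp, Hk2, Slc16a3, Eno3 and Aldoc are limited by their dim signal, and 3 arrays a group limit every value.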
